A study of Homo sapiens with 24 samples.

Results

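The comparison was of HCT116 cells in which the adenovirus E1A gene was switched on with HCT116 cells in which it was not. HCT116 is a human colorectal cancer line of epithelial origin, and the cells carried E1A under the TetOn system, in which doxycycline starts transcription of the transgene. All 24 samples of the series have this genotype, so the control cells carry the uninduced transgene as well. Of the 24 samples, 6 entered the comparison by their labels: 3 untreated samples (control) and 3 samples given doxycycline at 0.5 µg/mL and no oxaliplatin (E1A). Cells without the transgene given doxycycline were not part of the design, so the effects of doxycycline itself and of E1A cannot be told apart. The labels give the start of doxycycline as 3 h before the drug in the dishes that received oxaliplatin, and the time from doxycycline to harvest in the dishes without drug is not given in the sources used here. Beside these 6 samples, 2 further comparisons are shown: E1A against no E1A in HCT116 oxpl-R, a derivative selected for resistance to oxaliplatin (3 against 3), and E1A against no E1A in HCT116 cells that had 25 µM oxaliplatin for 24 h (3 against 3). The labels call the samples biological replicates.

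E1A is the first gene that adenovirus expresses in an infected cell. Its protein does not bind DNA by sequence. It works by holding host proteins: it takes RB, the retinoblastoma protein, and its relatives p107 and p130 away from E2F transcription factors, and it binds the acetyltransferases p300 and CBP and the corepressor CtBP. E2F factors drive the genes of DNA replication, and release of E2F from RB is the textbook route by which E1A pushes resting cells into S phase. HCT116 cells divide continuously in culture, so their replication genes are active before E1A is made.

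The libraries were prepared with an mRNA kit, and the expression of each gene was given by the authors as an estimated count of read pairs. The table of counts that was used ends at the gene SETP6 in alphabetical order, and later genes were taken from a second table. The counts of the first table summed to 29678604 to 30838378 in the control samples and to 26012781 to 28929200 in the E1A samples, and mitochondrial transcripts took 11.68% to 14.95% of them in the controls and 11.93% to 14.95% with E1A. Of 12 markers of colorectal epithelium 11 were in the tables, and 9 had at least 10 counts in every sample, among them EPCAM, CDH1 and the keratins KRT8, KRT18 and KRT19, while CDX1 and LGALS4 were at or near 0. The summed counts of these markers ranged from 202291 to 214165 in the controls and from 164178 to 196804 with E1A. These and the marker sums below are not scaled to library size, and each E1A library held fewer counts than each control. The lower sums with E1A are therefore no measure of fewer epithelial cells. In bulk RNA fewer cells of a kind and less RNA per cell cannot be told apart. The summed counts of 8 fibroblast markers were 618 to 654 in the controls and 687 to 873 with E1A, nearly all of it COL1A1, with DCN, LUM and FAP at 0 to 2 counts. Those of 7 leukocyte markers were 94 to 165 and 158 to 197, mostly CD68, with PTPRC at 0 to 2 counts, and those of 5 endothelial markers were 6 to 17 and 6 to 12. Pearson correlations of log2 values were 0.9977 to 0.9988 among the controls, 0.9972 to 0.9987 among the E1A samples and 0.995 to 0.9971 between them.

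The transgene itself, listed as Ad5-E1A, was at 173, 139 and 114 normalized counts in the controls and at 21747, 20852 and 23341 with doxycycline. The groups were far apart, and the labels and the transgene matched in all 6 samples. The difference was 7.28 on the log2 scale (SE 0.15, n = 3 per group), a fold of 155, with an adjusted p of 6.35e-20 in the quasi-likelihood test of edgeR. By mean estimated count Ad5-E1A took place 138 among all genes of the E1A samples, with 0.079% of all counts. The transcript was detected in every control, at 0.000474% of the counts on average.

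Across the genes, more were lower than higher with E1A, and most changes were small. Tested in the first table were 16416 genes, those not at 0 in all 6 samples. At an adjusted p below 0.05, 477 were higher (2.91%) and 1082 were lower (6.59%). After SETP6 another 2928 genes were tested, of which 57 were higher (1.95%) and 107 lower (3.65%). Both tables together gave 534 higher genes (2.76%) and 1189 lower genes (6.15%) among 19344. The median log2 fold change was 0.70 for the genes called higher and -0.57 for those called lower, against 0.014 for all genes tested. A log2 fold change above 1 was reached by 165 of the higher genes and one below -1 by 44 of the lower genes. The 3 controls and the 3 E1A samples did not overlap in 1413 of the called genes, against 4251 (22.0%) of all genes tested.

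How many genes passed depended on which libraries were in the fit. Among genes of the first table, 376 were called without control replicate 1 (166 higher and 210 lower), 872 without control replicate 2 (295 and 577), 1044 without E1A replicate 2 (372 and 672), and 2305 without E1A replicate 3 (733 and 1572). In the second table the numbers were 32 without control replicate 1, 52 without control replicate 2 and 275 without E1A replicate 3, with 225 called without control replicate 3. Of the higher genes 162 were called with each of the 6 samples left out in turn, and of the lower genes 211. The split between directions moved with the scaling too: 30.6% of the calls of the first table were in the direction of higher, against 49.7% with upper-quartile scaling (976 higher and 988 lower), which shifts the median of all genes to 0.09, 42.1% where genes of low count were filtered out first (392 and 540), and 97.6% where all 24 samples shared one estimate of the spread (82 and 2).

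The lower genes were mostly those with AT-rich transcripts. The Spearman correlation between the log2 fold change and the GC content of the transcript was 0.48 across 12779 genes, which share their 6 libraries and are not independent replicates. Genes called higher had a median GC content of 55.7% and genes called lower one of 39.9%, against 49.1% for all expressed genes. Among 2029 genes with less than 40% GC the median log2 fold change was -0.32, with 9 called higher and 610 called lower. Among 1997 genes with 60% GC or more the median was 0.11, with 147 higher and 11 lower. The libraries differed in the same property: the deviation of each library from the mean of all had a Spearman correlation with GC of -0.53, -0.58 and 0.16 in control replicates 1, 2 and 3 and of 0.28, 0.43 and 0.28 in the E1A samples, so that control replicate 3 sat on the side of the E1A samples. After the trend with GC content was removed from each sample 528 genes were higher (2.73%) and 784 were lower (4.05%), and 361 of the 534 higher genes and 565 of the 1189 lower genes were called in the same direction as before. Whether the GC trend comes from library preparation or from the cells was not tested, and values after its removal are given with the named genes that lose a call by it.

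Immediate early genes encode transcription factors and phosphatases that cells make within minutes of a growth or stress signal. Of 38 genes on the list 37 were tested, 12 were higher and 6 were lower, with a median of 0.01. Of all genes tested 2.76% were higher and 6.15% lower. JUNB, a subunit of the AP-1 factor (JUN and FOS proteins that pair and bind DNA together), was at 5386, 5156 and 5522 normalized counts in the controls and at 25674, 27308 and 25246 with E1A. The groups lay far apart and the samples within each were close together. The log2 fold change of JUNB was 2.28 (SE 0.10), a 4.87-fold increase, with an adjusted p of 3.90e-13 by edgeR. The gene lies on chromosome 19 of GRCh38, plus strand, from 12791486 to 12793315. EGR1, a zinc finger factor induced by MAP kinase signalling, was at 3857, 3418 and 3591 in the controls and at 14032, 14027 and 11248 with E1A. Every E1A sample was above every control, by 1.85 on the log2 scale (SE 0.11, adjusted p 6.75e-11, edgeR). EGR1 lies on chromosome 5, plus strand, from 138465479 to 138469303. Its relative EGR3 rose by 1.66 (adjusted p 2.73e-06), from 65.9 to 70.1 normalized counts in the controls to 192 to 230 with E1A.

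Other subunits of AP-1 rose less. FOSB was at 85.9, 54.1 and 81.9 in the controls and at 221, 220 and 188 with E1A, a log2 fold change of 1.51. JUN rose by 0.73 and FOS by 0.55. Only JUN and FOSB of these 3 were called with each sample left out: the adjusted p of FOS was 0.10 without control replicate 1 and 0.055 without E1A replicate 1 (edgeR). IER2, a nuclear protein named for its immediate early response, was at 7739, 7820 and 7689 in the controls and at 15537, 15151 and 15652 with E1A, which is 1.99-fold. The samples of each group differed by less than the distance between the groups. DUSP1, a phosphatase that switches off MAP kinases in the nucleus, rose by 1.26, and the stress factor ATF3 by 0.60. ARC, best known as an immediate early gene of neurons and not on the list, was named after its values were seen: it stood at 688, 650 and 699 in the controls and at 2936, 2877 and 2776 with E1A, a log2 fold change of 2.08.

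The 6 lower genes of the list were DUSP6, PHLDA1, MYC, KLF4, KLF6 and DUSP4. PHLDA1 was not called after removal of the GC trend (adjusted p 0.065) or without control replicate 1 (0.084, edgeR), and KLF6, DUSP4 and KLF4 were called in 3, 2 and 2 of the 6 fits that lack a sample. DUSP6, a phosphatase that takes ERK out of action and is itself a product of ERK signalling, went from 3996, 3861 and 3222 to 2361, 2639 and 2339, a log2 fold change of -0.59 (adjusted p 0.0011, edgeR). The groups did not overlap. MYC, the growth-promoting transcription factor, was at 15982, 15563 and 16466 in the controls and at 12174, 12588 and 11460 with E1A, and fell by 0.41 on the log2 scale. Its adjusted p was 0.080 without control replicate 1. KLF4 fell by 0.37, and its adjusted p ranged up to 0.128 with a sample left out. After removal of the GC trend the list had 11 higher and 10 lower genes, and it had 9 to 12 higher and 1 to 8 lower genes over the 6 fits that lack a sample.

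**Figure D1:**
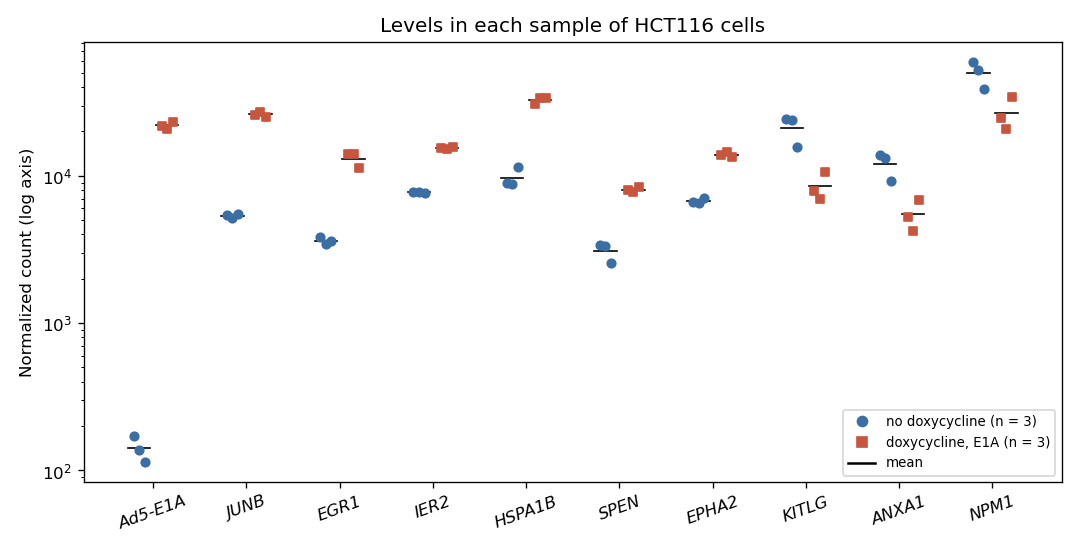
Normalized counts (log axis) of 10 genes in each sample of HCT116 cells, with circles for the 3 control samples, squares for the 3 E1A samples and a line for each mean. Ad5-E1A, JUNB, EGR1, IER2, HSPA1B, SPEN and EPHA2 were higher in every E1A sample than in every control. KITLG, ANXA1 and NPM1 were lower, with the third control replicate and the third E1A replicate nearest to each other.

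The promoters of these genes and of others that the comparison turns on are shown as windows from 250 bases before to 50 bases after the start of transcription, taken from RefSeq on GRCh38.p14 and written in the direction of the gene. Motifs were searched on both strands and are in capitals: E2F as TTTGGCGC, TTTCGCGC, TTTCCCGC or TTTGGCGG, AP-1 as TGACTCA or TGAGTCA, CRE as TGACGTCA and NF-Y as CCAAT. A word on the other strand shows as its reverse complement. The CArG box, which serum response factor binds, was added after values were seen. The windows of JUNB and EGR1 are shown as those of 2 genes that were called in all 3 comparisons, chosen after values were seen. HSPA1B was called in all 3 as well. Its window, which is not shown, holds 2 NF-Y words and no CArG box. The windows of FOS and CCN2, also looked at and not shown, hold no CArG box either.
JUNB (chr19:12791236-12791535, plus strand): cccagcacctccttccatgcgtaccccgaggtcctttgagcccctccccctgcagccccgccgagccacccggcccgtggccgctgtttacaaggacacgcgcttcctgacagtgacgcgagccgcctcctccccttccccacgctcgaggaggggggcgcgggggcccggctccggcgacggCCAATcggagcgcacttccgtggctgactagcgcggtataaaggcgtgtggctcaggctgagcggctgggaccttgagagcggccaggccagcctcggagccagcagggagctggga
EGR1 (chr5:138465229-138465528, plus strand): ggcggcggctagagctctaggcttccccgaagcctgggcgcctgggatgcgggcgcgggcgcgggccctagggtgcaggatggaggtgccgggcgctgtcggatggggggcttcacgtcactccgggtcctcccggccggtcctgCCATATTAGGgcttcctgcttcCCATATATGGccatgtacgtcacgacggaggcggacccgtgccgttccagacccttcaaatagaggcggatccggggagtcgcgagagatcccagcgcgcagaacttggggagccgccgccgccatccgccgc
The JUNB window holds 1 NF-Y word and none of the others, and the EGR1 window holds 2 CArG boxes. Over all 27305 windows in the table the share with a CArG box was 1.29%, that with an NF-Y word 35.7%, that with an AP-1 word 4.92% and that with a CRE 1.98%. Over the 13552 windows of genes that were tested, 3.86% held an AP-1 word, 2.72% a CRE and 1.14% a CArG box. Among 413 windows of genes called higher, 4.36% held an AP-1 word and 4.12% a CRE, and among 974 windows of genes called lower 2.16% and 2.98% did. The sets differed in base composition, with a median window GC content of 68.3% for genes called higher, 63.7% for those called lower and 64.0% for tested genes. Its part in these shares was not tested. The AP-1 share was 7.14% (9 of 126) for genes that rose by more than 1 on the log2 scale and 3.85% (1 of 26) for the list of immediate early genes. The CArG share was 1.69% for genes called higher, 1.33% for those called lower and 0.794% (1 of 126) for those that rose by more than 1.

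Heat shock proteins are chaperones that hold and refold other proteins. The stress-inducible HSP70 gene HSPA1B was at 8904, 8842 and 11431 in the controls and at 30549, 33677 and 33820 with E1A. The groups did not overlap, and the log2 fold change was 1.75 (SE 0.11, adjusted p 5.10e-10, edgeR), or 3.36-fold. HSPA1A, a nearly identical gene beside it on chromosome 6, rose by 2.07, from 122, 170 and 189 to 736, 737 and 550. Reads of HSPA1A and HSPA1B can be assigned to either, so their separate values are uncertain. No other of the 30 tested genes on the list was higher, and 7 were lower. Of all genes tested 2.76% were higher and 6.15% lower. HSPA8, the constitutive HSP70, was at 59541, 57093 and 45553 in the controls and at 25665, 24623 and 38826 with E1A, and fell by 0.86 on the log2 scale. HSPD1, the chaperonin of mitochondria, fell by 0.82, and HSP90AA1, the inducible cytosolic HSP90, by 0.77. The third control (35709) and the third E1A sample (36438) overlapped for HSP90AA1, and without control replicate 1 its adjusted p was 0.053. Other stress-inducible members did not pass: DNAJB1 had a log2 fold change of 0.14 (adjusted p 0.489) and HSPH1 one of -0.26 (adjusted p 0.19). With a sample left out 2 genes of the list were higher and 2 to 11 were lower.

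Genes that respond to cell contact, matrix and YAP, a coactivator controlled by cell shape, included some of the larger increases. CCN2, a secreted matrix protein and a YAP target, was at 50.3, 56.1 and 69.9 in the controls and at 262, 290 and 225 with E1A, which is 4.4-fold (log2 2.14, SE 0.19, adjusted p 1.08e-07, edgeR). The E1A samples were all above the controls. Its relative CCN1 rose by 0.95, the collagen COL12A1 by 0.75, and AMOTL2, an angiomotin that acts on YAP, by 0.46. The call of AMOTL2 was lost without control replicate 1 (adjusted p 0.078) or 2 (0.069). Of 50 genes on the list 6 were higher and 3 lower, against 2.76% and 6.15% of all genes, with a median of 0.01. With a sample left out 3 to 11 were higher and 0 to 5 lower. COL1A1, the marker that made up most of the fibroblast sum, rose by 0.40 (adjusted p 0.041, and 0.214 after removal of the GC trend). It was called in 2 of the 6 fits that lack a sample, and its part in these counts was not tested.

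Among receptor tyrosine kinases and their ligands, 2 of 27 tested genes were higher and 3 lower, beside 2.76% and 6.15% of all genes. EPHA2, a receptor for ephrins on neighbouring cells, had the largest rise among these 5. It stood at 6687, 6577 and 7062 in the controls and at 13783, 14399 and 13357 with E1A, 2.04-fold (adjusted p 3.27e-07, edgeR). The groups were well apart. EREG, a ligand of the EGF receptor, went the other way, from 20950, 20760 and 18011 to 11346, 11299 and 10325, and fell by 0.86 on the log2 scale. AREG, a ligand of the same receptor, fell by 0.52 (adjusted p 0.052 without control replicate 1). HBEGF, also a ligand of that receptor, rose by 0.54, with an adjusted p of 0.088 without control replicate 1 and of 0.053 without E1A replicate 2.

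The largest fold changes were of genes that the control cells barely expressed. HEY2, a repressor downstream of Notch, had no counts in the 3 controls and 16.6, 9.63 and 12.1 normalized counts with E1A, at least 4.22-fold higher when the controls are set to 3 counts per library. Its relative HEY1 was at 14.8, 14.75 and 20.97 and at 91.0, 96.3 and 80.5, a log2 fold change of 2.40 (SE 0.28, adjusted p 1.11e-05, edgeR). Both genes of the pair moved in the same direction, and the groups of neither overlapped. CLIC5, a protein of the ezrin-linked cell cortex, was at 5.92, 3.93 and 5.99 and at 76.3, 76.1 and 77.1, a log2 fold change of 3.83 (SE 0.36, adjusted p 3.21e-07). The 3 E1A samples of CLIC5 were within 2 counts of each other. ITGB3, the integrin beta 3 chain, rose by 2.47, from 8.88, 1.97 and 11.98 to 30.3, 59.7 and 37.5. Named after their values were seen, the noncoding LINC00659 rose by 3.48, from 204, 186 and 204 to 1935, 1902 and 2809, and DSP-AS1, an antisense gene at the desmoplakin locus, by 3.93. The sources used here do not state whether the libraries keep strand, so reads of DSP-AS1 and of its partner DSP cannot be told apart where they overlap.

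The windows of HEY2 and CLIC5 are shown as those of the 2 genes with the largest fitted fold change by the rule for named genes, which leaves out pseudogenes and antisense loci. For HEY2 the fitted value rests on controls at 0, and only the bound above is given.
HEY2 (chr6:125749382-125749681, plus strand): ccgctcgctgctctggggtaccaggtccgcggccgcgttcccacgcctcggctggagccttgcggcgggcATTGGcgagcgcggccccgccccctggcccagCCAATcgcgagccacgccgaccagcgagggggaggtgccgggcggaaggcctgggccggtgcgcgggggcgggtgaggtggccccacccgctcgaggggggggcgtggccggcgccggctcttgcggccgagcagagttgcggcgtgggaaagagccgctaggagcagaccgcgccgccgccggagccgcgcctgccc
CLIC5 (chr6:46129770-46130069, minus strand): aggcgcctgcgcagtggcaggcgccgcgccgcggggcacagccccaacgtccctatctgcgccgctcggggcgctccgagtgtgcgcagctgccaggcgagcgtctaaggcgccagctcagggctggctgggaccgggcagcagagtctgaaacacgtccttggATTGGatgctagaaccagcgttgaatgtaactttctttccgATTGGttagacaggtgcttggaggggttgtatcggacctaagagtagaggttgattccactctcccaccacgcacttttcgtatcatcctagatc
Both windows hold 2 NF-Y words and none of the E2F, AP-1 or CRE words.

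SPEN, a large corepressor that acts in Notch signalling and in X inactivation, was at 3368, 3342 and 2575 in the controls and at 7960, 7817 and 8340 with E1A. Every E1A sample exceeded every control, by 1.38 on the log2 scale (SE 0.11, adjusted p 1.09e-07, edgeR). SPEN-AS1, on the other strand at the same locus, rose by 1.84, with the same limit on strand. BRD2, a reader of acetylated histones, was at 10957, 11196 and 11866 and at 27019, 26611 and 24703, and rose by 1.20. BRD2 is not on a list and was named after its values were seen. Among 40 tested replication-dependent histones the median was 0.35, and 2 were higher, beside 2.76% of all genes. H4C14 rose by 2.39 and H2AC18 by 1.58. Copies of these histone genes are nearly identical, their transcripts mostly lack poly(A) tails, and counts of H4C14 in the controls were 48.4, 63.9 and 9.99, so their values are uncertain. TENT5B, a poly(A) polymerase, rose by 1.55 and SULF2, an enzyme that trims heparan sulfate outside the cell, by 1.26.

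The genes that E2F drives did not move together. Of 76 listed E2F targets of G1 and S phase 72 were tested, 1 was higher and 6 were lower, beside 2.76% and 6.15% of all genes. The median log2 fold change of the list was 0.03, beside 0.014 for all genes. E2F1, both a factor and a target of this pathway, was at 2453, 2317 and 2728 in the controls and at 3273, 3183 and 3069 with E1A, a log2 fold change of 0.35 (SE 0.10, adjusted p 0.026, edgeR). The groups did not overlap, but the change was small, and after removal of the GC trend it was 0.19 with an adjusted p of 0.239. Without control replicate 1 its adjusted p was 0.169, without control replicate 2 it was 0.212, and without E1A replicates 1 and 2 it was 0.103 and 0.078. CCNE1, cyclin E1, was at 2113, 2320 and 2384 and at 2007, 2194 and 2348 (log2 -0.06, adjusted p 0.78). CDC6, which loads the replicative helicase, had a log2 fold change of -0.17 (adjusted p 0.401) and MCM2, a subunit of that helicase, one of 0.20 (adjusted p 0.269). None of these 3 separated the groups.

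The lower members of that list were small changes as well. CHEK1, the checkpoint kinase that acts on stalled replication forks, was at 1614, 1578 and 1131 in the controls and at 900, 903 and 1190 with E1A, and fell by 0.53 on the log2 scale. CCNA2, cyclin A2, fell by 0.44. In both genes and in DBF4 and GMNN the third E1A sample lay above the third control. Leaving out control replicate 1 took the adjusted p of CHEK1 and CCNA2 to 0.169 and 0.204, and leaving out control replicate 2 to 0.066 and 0.094. Without E1A replicate 2 that of CCNA2 was 0.089. The whole list had no called gene without control replicate 1 or 2, had 14 higher and 13 lower genes without E1A replicate 3, and had 3 higher and 17 lower without control replicate 3. After removal of the GC trend 2 of its genes were higher and 3 lower, and CHEK1 (0.062), CCNA2 (0.101), DBF4 (0.231) and GMNN (0.1002) no longer passed at these adjusted p (edgeR).

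The windows of CHEK1, CCNA2 and E2F1 are shown as those of E2F targets that were called.
CHEK1 (chr11:125625979-125626278, plus strand): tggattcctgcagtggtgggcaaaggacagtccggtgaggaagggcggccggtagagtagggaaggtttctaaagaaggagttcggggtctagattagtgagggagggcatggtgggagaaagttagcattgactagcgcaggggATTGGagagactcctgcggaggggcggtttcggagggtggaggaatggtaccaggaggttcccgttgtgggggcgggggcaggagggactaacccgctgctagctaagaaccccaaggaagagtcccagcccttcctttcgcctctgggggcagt
CCNA2 (chr4:121823834-121824133, minus strand): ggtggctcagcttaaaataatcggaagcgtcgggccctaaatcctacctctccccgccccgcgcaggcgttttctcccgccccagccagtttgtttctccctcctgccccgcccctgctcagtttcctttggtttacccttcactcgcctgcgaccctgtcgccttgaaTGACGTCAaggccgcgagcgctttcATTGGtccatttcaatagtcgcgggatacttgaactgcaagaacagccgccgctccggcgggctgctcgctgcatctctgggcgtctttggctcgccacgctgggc
E2F1 (chr20:33686336-33686635, minus strand): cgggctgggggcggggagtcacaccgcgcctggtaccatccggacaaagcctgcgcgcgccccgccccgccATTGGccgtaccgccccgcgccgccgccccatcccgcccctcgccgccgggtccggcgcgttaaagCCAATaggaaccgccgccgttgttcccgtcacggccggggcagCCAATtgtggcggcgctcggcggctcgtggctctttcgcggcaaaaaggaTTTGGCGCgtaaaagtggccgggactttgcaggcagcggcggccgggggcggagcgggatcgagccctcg
The E2F1 window holds 1 E2F word and 3 NF-Y words, the CCNA2 window a CRE and an NF-Y word, and the CHEK1 window an NF-Y word. Of 60 windows of the list 33 (55%) held an E2F word, against 3.43% of all windows and 4.84% of those of tested genes. The share was 4.12% among the genes called higher and 5.44% among those called lower.

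Of 28 tested genes for proteins that E1A is known to bind 1 was higher and 5 were lower, with a median of 0.00, beside 2.76% and 6.15% of all genes tested. RB1 was at 1977, 2164 and 1804 in the controls and at 2190, 2088 and 1719 with E1A (log2 0.01, SE 0.11, adjusted p 0.973, edgeR). RBL1, which encodes p107, had a log2 fold change of 0.00 and RBL2, which encodes p130, one of 0.05. EP300 (p300) was at 0.02, CREBBP (CBP) at 0.16 and CTBP1 at 0.06, and none of these passed. KAT2B, the acetyltransferase PCAF, was the one that was higher, from 140, 209 and 143 to 303, 294 and 259, with an adjusted p of 0.070 without control replicate 1. The 5 lower genes were MYC, ACTL6A, RUVBL1, NAA15 and RAN, the GTPase of nuclear transport, which fell by 0.64 on the log2 scale. NAA15 was not called after removal of the GC trend (adjusted p 0.715), and with a sample left out 0 to 2 genes of the list were higher and 1 to 5 lower. RUVBL1 lost its call without control replicate 1 (adjusted p 0.194, edgeR) or 2 (0.115), or E1A replicate 1 (0.116) or 2 (0.153). NAA15 lost it without control replicate 1 (0.195) or 2 (0.189) or E1A replicate 2 (0.0569). Without control replicate 1 ACTL6A (0.0805) and MYC (0.0804) were not called. Of 21 factors of the RB, E2F and DREAM groups E2F1 was higher, and LIN9, a subunit of the DREAM and MuvB complexes, and TFDP2, a partner of E2F, were lower. TFDP2 was not called without control replicate 1 (adjusted p 0.189), control replicate 2 (0.139), E1A replicate 1 (0.078) or E1A replicate 2 (0.088). LIN9 went from 468, 531 and 405 to 237, 221 and 365, and fell by 0.77 (adjusted p 0.0055). Without E1A replicate 3 this list had 4 higher and 2 lower genes.

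Among G1 cyclins, their kinases and the CDK inhibitors, 4 of 19 tested genes were higher, beside 2.76% of all genes, and CCNA2 was lower. Of the 4 higher genes 3 are inhibitors, while the inhibitors CDKN1B, CDKN1C, CDKN2A and CDKN2B were not called. CDKN2C (p18), an inhibitor of CDK4 and CDK6, was at 373, 349 and 407 in the controls and at 654, 606 and 667 with E1A, and rose by 0.77 on the log2 scale (adjusted p 0.00077, edgeR). CDKN1A (p21), a target of p53 that inhibits CDK2, was at 4342, 4015 and 4152 and at 5857, 5691 and 5533, and rose by 0.45 (adjusted p 0.0039). The groups overlapped in neither gene. CDKN2D (p19) and cyclin D3, CCND3, were higher too, with adjusted p of 0.146 and 0.074 without control replicate 1. For CDKN2D it was 0.118 without control replicate 2, 0.053 without E1A replicate 2 and 0.090 after removal of the GC trend. Of 41 tested genes of the G2 and M phases 3 were lower and none higher, beside 6.15% and 2.76% of all genes tested. The list median was -0.11, and 0.01 after removal of the GC trend, and no member was called without control replicate 1. CCNB1, cyclin B1, fell by 0.66 from 8432, 8471 and 5942 to 4665, 4006 and 5749. The adjusted p of CCNB1 was 0.053 without control replicate 1. KIF20B and HMMR, the other two, were not called after removal of the GC trend (adjusted p 0.573 and 0.186), where 2 genes of the list were lower.

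Targets of p53 moved in both directions: 3 of 48 tested were higher and 6 lower, beside 2.76% and 6.15% of all genes, with a median of -0.02. After removal of the GC trend 5 were higher and 4 lower, and with a sample left out 1 to 3 were higher and 3 to 7 lower. KITLG, the ligand of the KIT receptor and a listed p53 target, was at 24108, 23935 and 15641 in the controls and at 7861, 6950 and 10585 with E1A, and fell by 1.33 on the log2 scale (SE 0.15, adjusted p 6.25e-06, edgeR). The groups did not overlap, and the third replicates were the nearest to each other. CCNG1, cyclin G1, fell by 0.74 and GADD45A, a growth arrest gene, by 0.45. Of 35 apoptosis regulators CASP9, the initiator caspase of the mitochondrial route, was the one that rose, from 500, 478 and 539 to 752, 788 and 854 (log2 0.66, adjusted p 0.0019).

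Of 60 tested interferon-stimulated genes 2 were higher and none lower, with a median of 0.03, beside 2.76% of all genes called higher, and with a sample left out 1 to 4 were higher and 0 to 3 lower. IRF7, a factor that drives interferon genes, was at 121, 119 and 137 in the controls and at 238, 225 and 246 with E1A, 1.88-fold (adjusted p 0.0012, edgeR). PSMB9, a subunit of the immunoproteasome, rose by 0.90, with an adjusted p of 0.070 without control replicate 1. In the presentation of antigen by MHC class I, 3 of 19 genes were higher and the median was 0.19. HLA-F, a nonclassical class I molecule, was at 493, 481 and 403 and at 782, 804 and 895, and rose by 0.85 (adjusted p 0.00029). HLA-B rose by 0.32, a call lost without control replicates 1 and 2 or E1A replicates 1 and 2, at adjusted p of 0.190, 0.207, 0.136 and 0.096, and after removal of the GC trend, at 0.109. The list of NF-kappaB targets had no higher gene (after removal of the GC trend 1 was higher and 2 lower), and LIF, a cytokine of the interleukin-6 family, fell by 0.47 (adjusted p 0.054 without control replicate 1).

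WNT targets, genes that beta-catenin switches on, moved in both directions, with 5 higher and 6 lower among 22 tested. Of all genes 2.76% were higher and 6.15% lower. NOTUM, a secreted enzyme that inactivates WNT, was at 785, 673 and 768 in the controls and at 1157, 1191 and 1011 with E1A, and rose by 0.59. SP5, a transcription factor, rose by 1.36, with an adjusted p of 0.052 without control replicate 2, and AXIN2, a scaffold of the complex that degrades beta-catenin, by 0.51, with one of 0.070 without control replicate 1 (edgeR). DKK1, a secreted WNT antagonist, went from 11745, 11725 and 10511 to 5690, 6292 and 8412, and fell by 0.74. BMP4 fell by 0.55, and RNF43, a ubiquitin ligase that removes WNT receptors, by 0.45, from 4781, 4813 and 4757 to 3322, 3621 and 3542. Of the junction genes CLDN4 rose by 0.50 and CLDN1, at 3.95, 13.8 and 3.99 in the controls, by 2.13, with an adjusted p of 0.088 without control replicate 1. Of 33 genes on that list 5 were higher, all claudins, and 4 lower, CLDN12 among them, and with a sample left out 1 to 6 were higher and 0 to 5 lower. After removal of the GC trend 2 were higher (CLDN1 and CLDN4) and 6 lower, and CLDN12 was not called (adjusted p 0.463, edgeR).

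Among the lower genes the abundant ones changed most in counts. EEF1A1, the elongation factor of translation, was at 391222, 358229 and 257295 in the controls and at 189699, 180359 and 239880 with E1A, and fell by 0.72 on the log2 scale. NPM1, a nucleolar chaperone, was at 58845, 52128 and 38901 and at 24548, 20733 and 34209, and fell by 0.91. In both genes the third control and the third E1A sample were next to each other, without overlap, and both genes have many processed pseudogenes to which reads can be assigned. Of 73 ribosomal proteins 6 were lower and none higher, beside 6.15% and 2.76% of all genes tested, with a median of -0.07. Without E1A replicate 3 the lower ribosomal proteins numbered 33 (median -0.30), and without E1A replicate 1 there were 4 higher and 2 lower ones (median 0.04). ARRDC3, an arrestin-like protein, fell by 1.58 on the log2 scale (adjusted p 4.04e-06, edgeR), from 871, 895 and 650 to 259, 196 and 355. ANXA1, a membrane-binding annexin, fell by 1.15 from 13788, 13287 and 9263 to 5277, 4246 and 6900, and PRKACB, a catalytic subunit of protein kinase A, by 1.16. ARRDC3, ANXA1, PRKACB and KITLG all have transcripts of 37.2% to 39.3% GC, and after removal of the GC trend they still fell, by 1.26, 0.88, 0.84 and 1.00.

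The remaining lists held few calls. Of 24 genes of cholesterol synthesis and uptake 6 were lower, beside 6.15% of all genes, HMGCS1 at the entry of the pathway among them (-0.63). None of the 24 was lower without control replicate 1. Nuclear subunits of oxidative phosphorylation had 4 lower genes of 67, beside 6.15% of all genes, with 16 lower without E1A replicate 3 and 4 higher and 4 lower without E1A replicate 1. No gene of the mitochondrial genome that encodes a protein passed (13 tested, median -0.14). MT-RNR1, the small ribosomal RNA of mitochondria, was at 176450, 148910 and 231227 in the controls and at 267065, 296388 and 268689 with E1A (log2 0.58, adjusted p 0.0058, edgeR), and lost the call without control replicate 1 (0.077) or 2 (0.052). The integrated stress response had 2 higher and 5 lower genes of 41, neuronal genes under REST 0 and 2 of 20, the MYC network 1 and 1 of 12, and 5 tested metallothioneins none. Among all genes tested 2.76% were higher and 6.15% lower. With a sample left out the stress response had 1 to 3 higher and 0 to 7 lower genes. The neuronal list then had 1 to 2 lower genes, and the MYC network 0 to 2 higher and 0 to 1 lower.

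**Figure D2:**
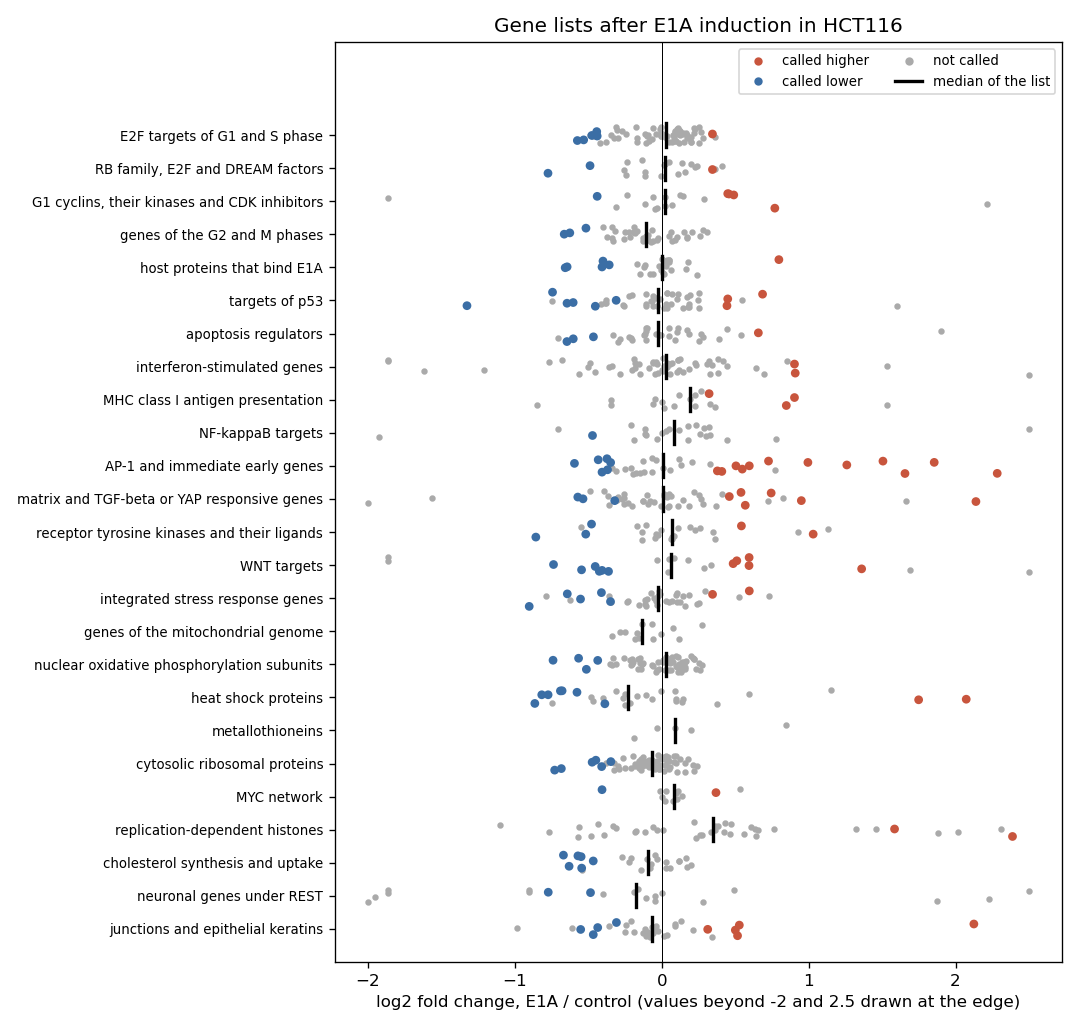
Each point is a tested member of a gene list, placed by its log2 fold change between E1A and control samples of HCT116 (x axis, 3 samples per group, values beyond -2 and 2.5 drawn at the edge). Red and blue points were called higher or lower at an adjusted p below 0.05, and black bars are list medians. The immediate early genes reach 2.28 with 12 higher genes, while the 72 E2F targets lie around a median of 0.03.

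In HCT116 oxpl-R the induction of E1A, measured in other samples, called fewer genes and moved most of the same genes the same way. The transgene rose by 6.52 on the log2 scale. Of 20268 genes tested 15 were higher (0.074%) and 0 were lower (0%) at an adjusted p below 0.05 by edgeR, with 1112 at an unadjusted p below 0.05. Of these 15 genes 14 were called higher in HCT116 too: Ad5-E1A, BRD2, DSP-AS1, EGR1, H2AC18, H4C14, HSPA1B, JUNB, KCTD12, LINC00659, PSMB9, RENO1, SPEN and SPEN-AS1. Of the genes called higher in HCT116, 500 of 533 (93.8%) had a log2 fold change above 0 in oxpl-R, with a median of 0.45, and of those called lower 1114 of 1187 (93.9%) had one below 0, with a median of -0.35. Of all genes tested 50.9% were above 0 there. The GC trend was weaker in oxpl-R (Spearman correlation 0.14 across genes) and of the same sign as in HCT116. By library the deviation had a correlation with GC of 0.545, -0.233 and -0.119 with E1A and of -0.115, 0.054 and -0.104 in the controls. Replicate 1 with E1A thus stood apart from the rest. The part of this trend in the shared directions was not tested.

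Under oxaliplatin fewer genes were called in HCT116 cells. The estimated counts of the transgene were 5687, 15715 and 14644 in the 3 samples with E1A and oxaliplatin, so that replicate 1 held less of it than the others, and the log2 fold change was 6.09. Of 19169 genes 4 were higher (0.0209%) and 0 lower (0%), with 359 at an unadjusted p below 0.05 (edgeR). They were Ad5-E1A, EGR1, HSPA1B and JUNB, all 4 called higher without the drug. JUNB rose by 2.28 without drug, by 1.88 in oxpl-R and by 1.46 under oxaliplatin, EGR1 by 1.85, 2.34 and 1.65, and HSPA1B by 1.75, 1.66 and 1.43. SPEN had nearly one value in the 3 comparisons (log2 1.377, 1.344 and 1.378), although it did not pass under oxaliplatin (adjusted p 0.674). Of the genes called higher without drug 432 of 533 (81.1%) were above 0 under oxaliplatin, with a median of 0.20. Of those called lower only 341 of 1187 (28.7%) were below 0, with a median of 0.15. ANXA1, which fell by 1.15 without drug, had 0.15 under oxaliplatin, and HSPA8 had 0.28 after a fall by 0.86, neither passing there. The Spearman correlation of the log2 fold change with GC content was of opposite sign under oxaliplatin, at -0.22. Single libraries differed in sign within each group. Their deviations had correlations with GC of 0.422, 0.029 and -0.169 with oxaliplatin alone and of 0.487, -0.283 and -0.605 with E1A added. Whether the direction of the lower genes under oxaliplatin follows from these libraries was not tested.

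**Figure D3:**
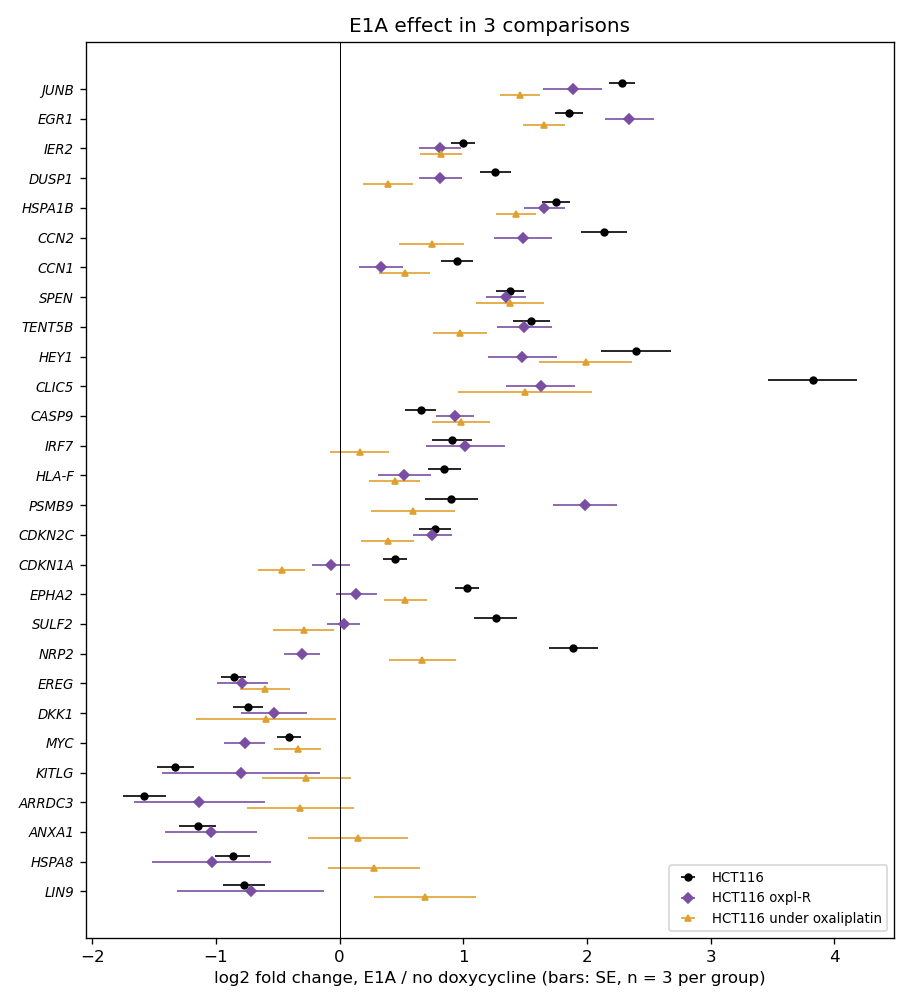
Log2 fold changes with their standard errors for 28 genes in 3 comparisons of E1A against no E1A (x axis, 3 samples per group): HCT116 (circles), HCT116 oxpl-R (diamonds) and HCT116 under oxaliplatin (triangles). JUNB, EGR1, HSPA1B and SPEN lie right of 0 in all 3 comparisons, NRP2 is at 1.89, -0.31 and 0.67, and KITLG, ARRDC3 and ANXA1 are nearer to 0 or above it under oxaliplatin.

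Whether the E1A effect differed between HCT116 and oxpl-R was tested by the interaction term over 12 samples. Of 21470 genes 3 passed (0.014%), with 507 at an unadjusted p below 0.05 in edgeR and 10 called by DESeq2 in the first table. NRP2, a coreceptor for semaphorins and VEGF, was at 49.25, 49.99 and 49.87 in HCT116 controls and at 170, 225 and 166 with E1A. In oxpl-R it was at 1908, 1699 and 1568 without and at 1519, 1476 and 1183 with E1A. The effect in oxpl-R was lower by 2.22 (log2, SE 0.24, adjusted p 0.00018), and the level of NRP2 in oxpl-R stood above that of HCT116 in every sample. DSP-AS1 rose in both lines, by 3.93 and 1.95, and these differ (adjusted p 0.033). NSUN5P1, a pseudogene with near copies in the genome, had 80.2, 46.2 and 89.8 normalized counts in HCT116 controls and 0 in each E1A sample, and 0 in each oxpl-R control and 53.2, 65.6 and 127 with E1A. Estimated counts can be moved whole between such copies, so NSUN5P1 is uncertain.

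Several other genes had different values in the lines without passing that test. EPHA2 rose by 1.03 in HCT116 and had 0.14 in oxpl-R (adjusted p of the difference 0.365, edgeR). SULF2 had 1.26 and 0.03 (adjusted p 0.187), PRKACB -1.16 and -0.04 (adjusted p 0.415), and PCDH7, a protocadherin, -1.06 and 1.18 (adjusted p 0.83). A difference of effect between cells with and without oxaliplatin was called for none of 20731 genes (0%), with 987 at an unadjusted p below 0.05 and 14 called by DESeq2 in the first table. Without replicate 1 of the samples with E1A and oxaliplatin, the one with the least transgene, 527 genes of the first table and 51 of the second were called. CDKN1A, which rose by 0.45 without drug, had -0.47 under oxaliplatin, and the difference of -0.94 did not pass (adjusted p 0.654).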

How the data were processed

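RNA of 24 samples was sequenced (8 groups of 3), and 6 samples were compared here, grouped by their labels. The authors trimmed reads with Trimmomatic, quantified them with Salmon 1.6.0 on GRCh38 transcripts correcting for sequence and GC biases, and added the transcripts of each gene. The deposited values are estimated counts, not normalized, and were rounded here. The count table holds 33113 genes to SETP6. The second, of 37967 genes, is named TPM, but its columns sum to 28004261 to 42613322 and follow the estimated counts, so it was read as length-scaled estimated counts, not the unit that its name gives. Of its genes, 4854 lie after SETP6. Columns that map to no sample numbered 0. Genes beyond the end of the second table were not analysed here.

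Counts were tested in R 4.3.3 with edgeR 4.0.16 (TMM, quasi-likelihood test, p adjusted by Benjamini-Hochberg across the genes not at 0 throughout a fit, called below 0.05). Normalized counts are scaled by TMM to the mean library. E1A effects were compared by interaction terms over 12 samples. A count of 0 allows up to 3 counts; such limits cover counting error only. Alternatives were limma 3.58.1, DESeq2 1.42.0, other scalings and filters, a shared fit of all 24 samples, a block for the replicate number, fits that lack 1 sample and, chosen after seeing the data, removal of the trend with GC content or length (a spline of 5 df per sample over genes with at least 10 counts on average). Positions and GC content came from a GENCODE release on GRCh38 earlier than the authors' and were joined by symbol (98.8% of genes of the count table). Tests were tried on simulated data first. Tables and plots used Python 3.11.15, numpy 2.4.6, pandas 2.3.3 and matplotlib 3.10.9.

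Some genes are not reported here. The comparison, the gene lists and the named genes were chosen with earlier results of these data known. By rule, the genes to name were drawn from all members of the lists of RB, E2F and DREAM factors and of E1A-binding proteins (by counts for the whole and values for a part), 4 members of each other list with the lowest p, in each table the 15 largest and 15 smallest called log2 fold changes without overlap where no sample of the higher group has under 10 counts, pseudogenes and antisense loci left out, and the 10 called genes with the largest change in normalized counts. Not every gene so drawn is printed. Further genes (such as CCNE1, CDC6, MCM2, DNAJB1, HSPH1 and COL1A1) were added after values were seen. Calls over replicates measure the spread between these samples.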

Additional observations from a re-analysis of the deposited data

Results flagged for a closer look

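The response to E1A differed between HCT116 oxpl-R and HCT116 cells in 3 genes by the interaction test of edgeR over 12 samples. For NRP2 the log2 effect in oxpl-R minus that in HCT116 was -2.22 (SE 0.24, adjusted p 0.00018): NRP2 rose in HCT116 in 3 of 3 samples, while the oxpl-R samples with E1A were all below their controls. For DSP-AS1 the difference was -2.01 (SE 0.32, adjusted p 0.033), with a rise in both lines. For NSUN5P1 it was 18.53 (SE 1.20, adjusted p 1.93e-06), a fitted value between groups that are at 0 counts, so its size has no meaning beyond the sign. NSUN5P1 was at least 24.6-fold lower with E1A in HCT116 when the E1A samples are set to 3 counts per library. No group here had enough samples for a test of outlying samples.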

How the results depend on the processing

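Counts of called genes in the first table (1559 in all, 477 higher and 1082 lower) changed by more than 1.5 times under these settings: all 24 samples in one fit gave 84 (82 and 2), the replicate number as a block 121 (74 and 47), genes kept by filterByExpr 932 with 540 lower, a floor of 10 counts in each sample 980 with 567 lower, and the length-scaled values of the same genes 831 (277 and 554). Upper-quartile scaling gave 976 higher genes, removal of the length trend 729 higher, and removal of the GC trend 709 lower. A log2 fold change of at least 1 left 180 (140 and 40) and one of at least 2 left 53 (40 and 13). With each sample left out the counts were 376 to 2305 in all, 166 to 733 higher and 210 to 1572 lower. In the second table (164 genes, 57 and 107) all 24 samples gave 9 (9 and 0), the block 10 (8 and 2), removal of the GC trend 109 with 34 higher, limma on log2(value + 1) 31 (10 and 21) and on log2(value + 0.1) 46 (14 and 32), and the fold cutoffs 29 (25 and 4) and 7 (6 and 1). With each sample left out it gave 32 to 275, 17 to 76 and 15 to 199. In oxpl-R all 24 samples gave 44 genes, all higher, in the first table and 4 in the second, and the block 22 (21 and 1). Under oxaliplatin all 24 samples gave 17 genes, all higher, and 2, and the block 0. The difference between the lines gave 7 genes with the block, 10 with DESeq2 and 2 to 7 with a sample left out (7 without E1A replicate 3 of oxpl-R). The difference under oxaliplatin gave 2 and 1 genes with all 24 samples, 1 with RLE scaling, 14 with DESeq2 and 0 to 527 and 0 to 51 with a sample left out. Where a fit uses fewer genes or samples the count changes by construction, and otherwise the cause was not tested. Same-numbered samples of the control and E1A groups did not deviate together (correlations -0.166, -0.144 and -0.223 across genes), so the numbers were not taken as pairs. In the other 2 comparisons some did: the correlations were -0.013, 0.502 and 0.63 in oxpl-R and -0.078, 0.618 and -0.197 under oxaliplatin. The main fits there and the interaction fits also took no pairs, and a shared batch of same-numbered samples was not tested beyond the block. Of 139 named genes that were called none changed direction under any setting: 139 were called again with RLE scaling, 113 after removal of the GC trend, 70 without control replicate 1, 32 with the block and 29 with all 24 samples. With 3 samples per group and this depth, genes of a few counts could not be resolved.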
